A study of Danio rerio with 14 samples.

Results

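The activating arm of the circadian clock and the repressor nfil3 were followed in the eyes of zebrafish larvae through 5 genes, namely bmal1a, bmal1b, clockb, nfil3 and nfil3-5. They were chosen by name, as all probes whose current or older symbol in the probe annotation is one of these. This gave 6 of the 17950 probes and 5 of the 8808 named genes in the deposited data, which hold fewer probes than the array. The annotation lists bmal1a as arntl1a, clockb as clock3 and both bmal1b probes as arntl1b. One bmal1b probe, called probe 1, was matched by its RefSeq accession, and the other, called probe 2, by the older symbol alone. The relatives clocka, npas2, bmal2, nfil3-2 and nfil3-4 were not analysed here. No nucleotide or protein sequence of the members was used.

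In vertebrates, BMAL1 and CLOCK proteins pair, bind E-box elements in DNA and switch on the period, cryptochrome and nr1d genes, whose products in turn repress the pair or its transcription. The nr1d (REV-ERB) receptors repress bmal1 transcription and the ROR receptors activate it, and in mammals REV-ERB also represses Nfil3. NFIL3 is a basic leucine zipper repressor that binds D-box elements, the same elements through which DBP, TEF and HLF activate transcription. The zebrafish eye holds a clock of its own that light sets.

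Eyes came from larvae of the AB wild-type strain, raised either with the brominated flame retardant tetrabromobisphenol A (TBBPA), studied as a thyroid hormone disruptor, at 200 µg/L, or as controls with 0 µg/L, which held the solvent dimethyl sulfoxide according to the methods. Exposure ran from fertilization to 5 days post fertilization (dpf), and larvae were sampled then or, after 3 days in clean water, at 8 dpf. Each of the 4 groups had 3 RNA samples, each pooled from the eyes of 10 larvae of 1 plate. The methods place sampling of all larvae in a few hours of the morning, and the order of the plates within that time is not given in the sources used here.

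The 12 RNA samples met in pairs on 14 two-color arrays, 6 with TBBPA against control at 5 dpf, 4 with TBBPA against control at 8 dpf, and 4 that linked the ages. Replicate 1 of the 5 dpf controls and replicate 1 of the 5 dpf TBBPA group were each on 4 arrays, including all links between the ages, and the other samples were on 2. Markers of cones (6 measured), rods (5), lens (6) and retinal pigment epithelium (4) were present among the probes. A log2 ratio gives no absolute amount, so levels of different genes are not compared, and fewer cells of a type cannot be told apart from less RNA per cell. Replicate 1 of the 5 dpf controls stood apart in liver genes, with a mean of 2.01 over fabp10a, apoa2, tfa and serpina1 against 0.22 and 0.19 in the other 5 dpf controls, and the main results are given with and without it.

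Sample levels below are log2 values estimated by least squares from the ratios, with the mean of the 12 samples set to 0 for each probe. Log2 fold changes ± standard error (SE) come from a limma model of the 14 ratios, in which arrays, not plates, are the replicates. They can differ from differences of mean levels, slightly within an age and by more between the ages. A probe passed the test when its Benjamini-Hochberg adjusted p over all 17950 probes was under 0.05. With 3 samples against 3, the smallest two-sided exact permutation p over samples is 0.10, so no exact test of single genes could reach 0.05.

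At the end of exposure, bmal1a, nfil3 and nfil3-5 transcripts were up-regulated in TBBPA eyes, whereas neither bmal1b probe nor clockb passed the test. The rise was 1.47-fold for bmal1a, 1.69-fold for nfil3 and 4.44-fold for nfil3-5. In all, 3 of 6 member probes rose and 0 fell, while 4.23% of all probes rose and 7.08% changed in either direction. With an absolute log2 fold change over 0.75 also required, 2 of 6 were called higher (nfil3 and nfil3-5), against 0.357% of all probes. When the 12 samples rather than the arrays were taken as units, 0 of 6 passed with limma (adjusted p = 0.514 for bmal1a, 0.304 for nfil3 and 0.281 for nfil3-5), where 1 of all 17950 probes did.

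**Figure D1:**
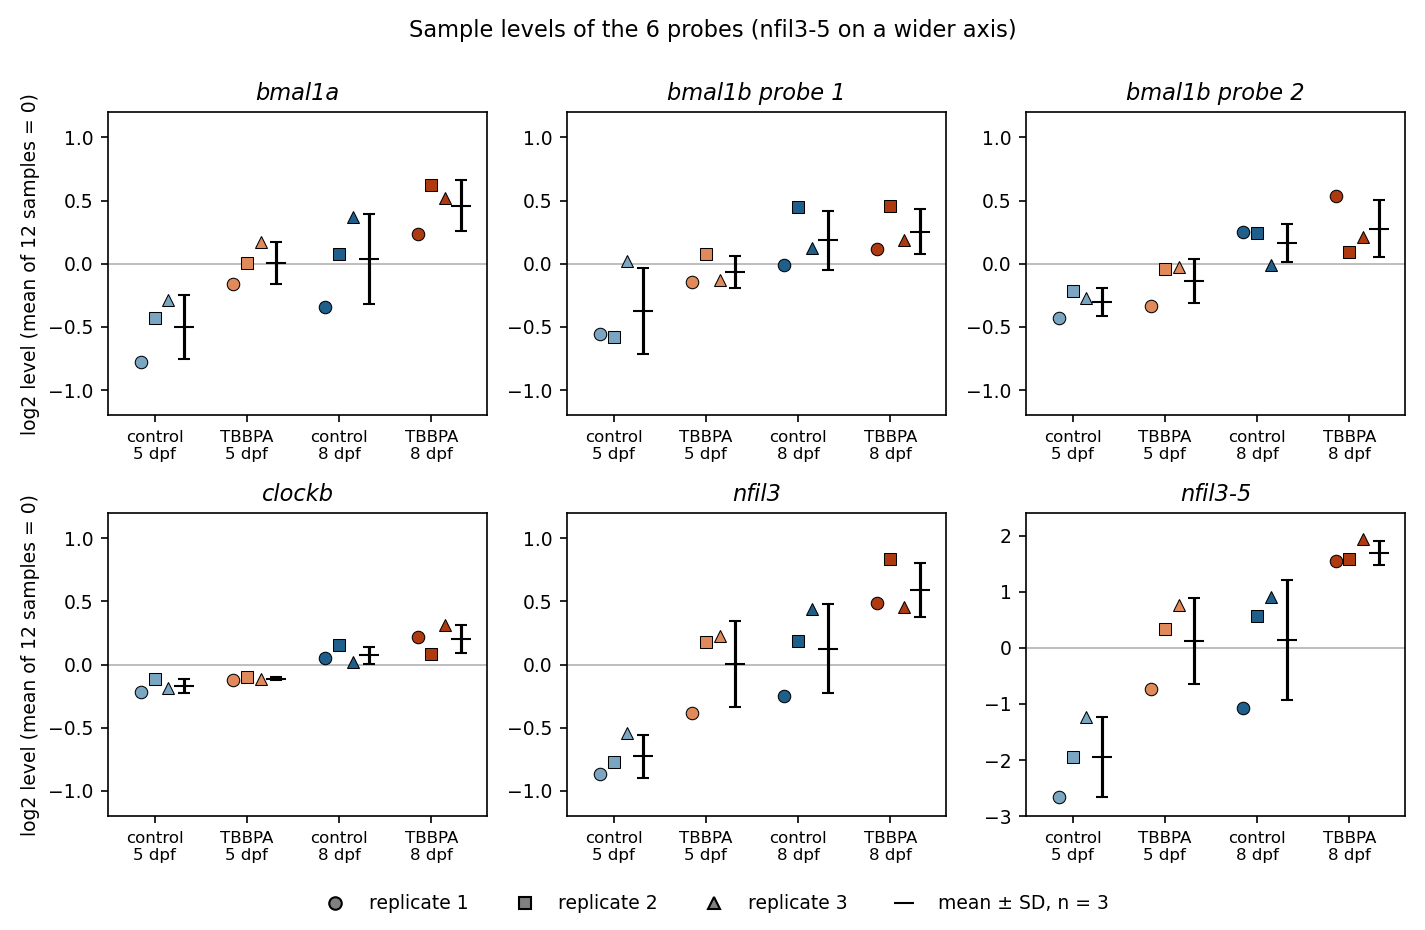
Log2 level of each of the 6 probes (vertical axis, mean of the 12 samples = 0) in the 12 RNA samples by group, with symbols for the replicate and a bar for mean ± SD (n = 3). The 3 TBBPA samples lay above the 3 controls of 5 dpf for bmal1a, nfil3 and nfil3-5, and the nfil3-5 panel has a wider axis because its levels ran from -2.66 to 1.94.

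For bmal1a, which encodes the partner of CLOCK in the activating complex, the 3 control samples of 5 dpf had levels of -0.78, -0.43 and -0.29 and the 3 TBBPA samples -0.16, 0.01 and 0.17. All TBBPA samples lay above all controls, with a gap of 0.12 between the nearest samples. The fitted change was 0.56 ± 0.10 (95% interval 0.34 to 0.77, limma adjusted p = 0.00501). On the 6 arrays that compared the groups directly, the log2 ratio of TBBPA over control was positive in 6, from 0.02 to 0.87.

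The paralog bmal1b was measured by 2 probes. With probe 1, the 5 dpf controls had levels of -0.56, -0.58 and 0.02 and the TBBPA samples -0.14, 0.08 and -0.13. Replicates 1 and 2 of the controls were low, but replicate 3 lay within the TBBPA samples, and the groups overlapped. The change was 0.38 ± 0.11 and missed the threshold (limma adjusted p = 0.0580). With probe 2, the controls had levels of -0.43, -0.21 and -0.27 and the TBBPA samples -0.34, -0.05 and -0.02. These groups also overlapped, since TBBPA replicate 1 was lower than 2 of the controls, and the change was 0.15 ± 0.07 (limma adjusted p = 0.237). Averaged over both probes, bmal1b had a change of 0.26 and passed over all 8808 genes (limma adjusted p = 0.0249), so that the call for bmal1b depends on the averaging. The averaged change was 0.13 without replicate 1 of the 5 dpf controls (limma adjusted p = 0.562).

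Transcripts of clockb, one of the zebrafish copies of Clock, moved least of the members. The 5 dpf controls had levels of -0.21, -0.11 and -0.19 and the TBBPA samples -0.12, -0.10 and -0.11. The TBBPA samples lay together at the upper end of the controls, and the groups overlapped. The change was 0.06 ± 0.05 (limma adjusted p = 0.564), and its 95% interval reached from -0.05 to 0.16.

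For the D-box repressor nfil3, the 5 dpf controls had levels of -0.87, -0.77 and -0.54 and the TBBPA samples -0.38, 0.18 and 0.23. The groups did not overlap, with a gap of 0.16, and TBBPA replicate 1 lay nearest to the controls. The change was 0.76 ± 0.11 (limma adjusted p = 0.00133), and the ratio was positive on 6 of 6 direct arrays, from 0.18 to 1.12.

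For nfil3-5, a relative of nfil3 whose own function is not described here, the 5 dpf controls had levels of -2.66, -1.95 and -1.24 and the TBBPA samples -0.73, 0.34 and 0.76. Each TBBPA sample was higher than each control by at least 0.51, although the samples of a group differed widely (SD 0.71 in controls and 0.77 after TBBPA). The change of 2.15 ± 0.36 (limma adjusted p = 0.00268) ranked 1 by size among the 17950 probes. The ratio was positive on 6 of 6 direct arrays and ranged from 0.74 to 3.99.

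Of all probes, 8.54% had 5 dpf TBBPA samples that all lay above the controls, as bmal1a, nfil3 and nfil3-5 did. The 3 calls rested on replicate 1 of the 5 dpf controls, which had the lowest level of the 12 samples for each of these 3 genes. Without it, on the 10 arrays that remained, 0 of 6 member probes passed with limma, and the changes were 0.32 (adjusted p = 0.271) for bmal1a, 0.56 (0.147) for nfil3 and 1.51 (0.188) for nfil3-5. Without TBBPA replicate 1 of 5 dpf, which also leaves 10 arrays, the same 3 genes passed. Over gene averages, 527 of all 8808 genes rose and 309 fell at 5 dpf with all samples. Only 46 passed without replicate 1 of the controls, and 315 without TBBPA replicate 1. Leaving out each of the other 10 samples kept these 3 as well, and without replicate 3 of the 5 dpf controls probe 1 of bmal1b passed besides (0.59, adjusted p = 0.00187).

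**Figure D2:**
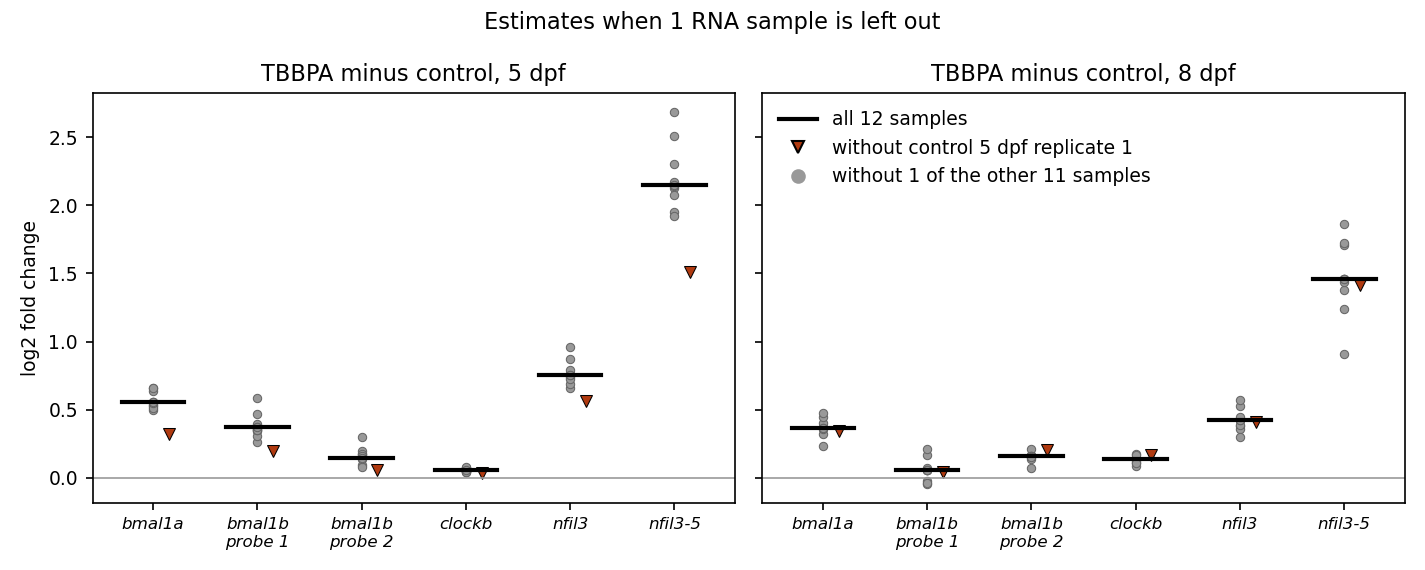
Log2 fold change of TBBPA over control (vertical axis) for the 6 probes at 5 dpf and 8 dpf, with a line for the estimate from all 12 samples and a point for each of the 12 fits that leave out 1 RNA sample. Without replicate 1 of the 5 dpf controls (triangle), the 5 dpf estimate fell from 0.56 to 0.32 for bmal1a, from 0.76 to 0.56 for nfil3 and from 2.15 to 1.51 for nfil3-5, and all 3 stayed above 0.

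Genes of other tissues moved with the same samples. The mean of 6 measured genes of the exocrine pancreas (of 9 listed) lay between 0.90 and 2.12 in the 5 dpf controls, highest in replicate 1, and between -0.29 and 0.64 after TBBPA, and all 6 fell. The 4 measured liver genes fell as well, 5 of 5 genes of skin and cornea rose (means 0.10 to 0.30 in controls and 0.62 to 0.80 after TBBPA), and 3 of 6 lens genes rose (means -0.60 to -0.41 in controls and -0.24 to 0.09 after TBBPA). The part of these tissues in the member results was not tested.

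After 3 days in clean water, all 6 member probes were higher in TBBPA eyes than in controls on average, but 0 of 6 passed the test with limma, where 1.39% of all probes passed. At an unadjusted p under 0.05, 4 of 6 were higher (bmal1a, clockb, nfil3 and nfil3-5), against 11.7% of all probes in either direction. With array weights nfil3 (0.51, limma adjusted p = 0.0263) and nfil3-5 (1.83, 0.0304) passed. With the replicate number as a block bmal1a, nfil3 and nfil3-5 passed, but whether the numbers pair the samples is not settled. The share of all probes that passed in these alternative fits is not given here. The estimate was largest for nfil3-5, at 2.75-fold, and smallest for bmal1b probe 1. Without replicate 1 of the 8 dpf controls the log2 estimate was 0.91 for nfil3-5, against 1.46 with it, and 0.23 for bmal1a, against 0.37.

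For bmal1a, the 8 dpf controls had levels of -0.34, 0.08 and 0.37 and the TBBPA samples 0.23, 0.62 and 0.52. Control replicate 3 lay above TBBPA replicate 1, so the groups overlapped, but these samples were compared only through the arrays that linked the ages. On the direct arrays of control replicate 3, with TBBPA replicates 2 and 3, the ratio of TBBPA over control was 0.20 each. The change was 0.37 ± 0.12 (limma adjusted p = 0.188), and the ratio was positive on 4 of 4 direct arrays, from 0.12 to 0.61.

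With bmal1b probe 1, the 8 dpf controls had levels of -0.01, 0.45 and 0.13 and the TBBPA samples 0.11, 0.45 and 0.19. The groups lay over each other, and the change was 0.06 ± 0.13 (limma adjusted p = 0.949). With probe 2, the controls had levels of 0.25, 0.24 and -0.01 and the TBBPA samples 0.53, 0.09 and 0.21. Only TBBPA replicate 1 lay above all controls, and the change was 0.16 ± 0.08 (limma adjusted p = 0.526). For clockb, the controls had levels of 0.05, 0.15 and 0.02 and the TBBPA samples 0.22, 0.09 and 0.31. Replicates 1 and 3 after TBBPA were higher than every control and replicate 2 was not, and the change was 0.14 ± 0.06 (limma adjusted p = 0.375).

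For nfil3, the 8 dpf controls had levels of -0.25, 0.19 and 0.44 and the TBBPA samples 0.48, 0.84 and 0.46. The TBBPA samples lay above the controls by a gap of 0.01, which is far smaller than the SD of 0.35 in controls and 0.21 after TBBPA. The change was 0.42 ± 0.13 (limma adjusted p = 0.154), and the ratio was positive on 3 of 4 direct arrays, from -0.05 to 0.69.

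For nfil3-5, the 8 dpf controls had levels of -1.08, 0.57 and 0.91 and the TBBPA samples 1.54, 1.58 and 1.94. The TBBPA samples were close together (SD 0.22) and lay above the controls, which were spread widely (SD 1.06), by a gap of 0.63. The change was 1.46 ± 0.42 (95% interval 0.55 to 2.36), with rank 4 by size among all probes, and it did not pass the test (limma adjusted p = 0.126). Groups that did not overlap in this direction were found for 3.48% of all probes at 8 dpf, and for 0.574% at both ages, as for nfil3 and nfil3-5. For nfil3 at 8 dpf this rests on a gap of 0.01 in estimated levels, between control replicate 3 and TBBPA replicate 3. The array that compared these samples directly had TBBPA lower (-0.05), so the separation of nfil3 at 8 dpf is not secure.

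The ratios of nfil3-5 differed between the dye orientations, which at both ages also held different pairs of samples. On arrays with the TBBPA sample in Cy5, its mean log2 ratio of TBBPA over control was 2.62 at 5 dpf and 2.25 at 8 dpf, and with the TBBPA sample in Cy3 it was 1.57 and 0.39. With a dye term in the model, the dye coefficient of nfil3-5 was 0.47 ± 0.18 and did not pass (limma adjusted p = 0.0779), and those of the other members lay between -0.07 and 0.03, of which 0 passed. With this term, bmal1a, nfil3 and nfil3-5 still passed at 5 dpf (limma adjusted p = 0.0327, 0.00990 and 0.00910), where 2.01% of all probes rose, and 0 of 6 passed at 8 dpf.

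**Figure D3:**
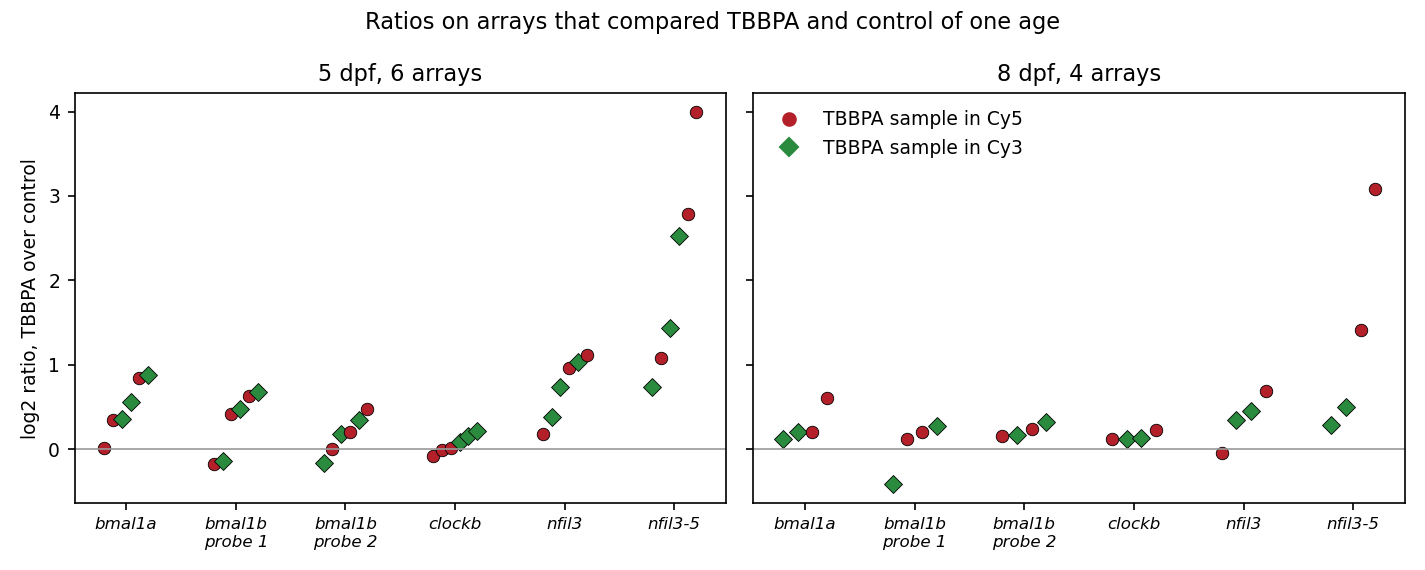
Log2 ratio of TBBPA over control (vertical axis) for the 6 probes on each array that compared the groups of 1 age, 6 at 5 dpf and 4 at 8 dpf, ordered by size within a probe. Circles are arrays with the TBBPA sample in Cy5 and diamonds those with it in Cy3. All ratios of nfil3-5 and bmal1a were above 0, and the nfil3-5 ratios at 8 dpf reached 3.09 in Cy5 but were lowest in Cy3, at 0.28.

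Whether the effect of TBBPA changed between the ages was tested as the difference of the effects, 8 minus 5 dpf. The difference passed with limma for 0 of 6 member probes and 0.0613% of all probes, and at an unadjusted p under 0.05 it was 0 of 6 against 11.5% of all probes. The estimate was -0.19 ± 0.16 for bmal1a (limma adjusted p = 0.699), -0.33 for nfil3 with a 95% interval of -0.70 to 0.03, and -0.69 for nfil3-5 with an interval of -1.87 to 0.49. These intervals hold 0, and they also hold a loss of most of the 5 dpf effect. For clockb the difference was 0.08, and for the bmal1b probes -0.32 and 0.01, none of which passed. The 5 dpf calls and the missed calls at 8 dpf thus do not show that the effect differed between the ages.

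Between 5 and 8 dpf, transcripts of all members rose in the eyes of both control and TBBPA larvae. In controls 6 of 6 member probes passed as higher, where 14.0% of all probes did and 32.3% changed in either direction. In TBBPA larvae 6 of 6 passed as higher as well, where 20.9% of all probes did and 43.3% changed. Both comparisons use the same linking arrays.

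The rise in controls was largest for nfil3-5, at 2.80 ± 0.55 on the log2 scale, or 6.95-fold (limma adjusted p = 0.00145). Mean levels of nfil3-5 lay closer together than this fitted rise, at -1.95 in controls of 5 dpf and 0.14 in those of 8 dpf. The fitted rise was 1.099 ± 0.17 for nfil3, or 2.14-fold (limma adjusted p = 0.000215), and 0.78 ± 0.16 for bmal1a (0.00167). The bmal1b probes rose by 0.78 ± 0.17 (limma adjusted p = 0.00330) and 0.58 ± 0.11 (0.00114), and clockb by 0.28 ± 0.08 (0.0138). Sample levels of the controls at 8 dpf lay above those at 5 dpf without overlap for bmal1b probe 2, clockb, nfil3 and nfil3-5, as for 16.0% of all probes. For bmal1a and bmal1b probe 1 the groups overlapped, through the low control replicate 1 of 8 dpf and the high control replicate 3 of 5 dpf.

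In TBBPA larvae the rise was 2.11 ± 0.55 for nfil3-5, or 4.30-fold (limma adjusted p = 0.00709), and 0.77 ± 0.17 for nfil3 (0.00246). It was 0.60 ± 0.16 for bmal1a (limma adjusted p = 0.00736), 0.46 ± 0.17 and 0.59 ± 0.11 for the bmal1b probes (0.0418 and 0.000777) and 0.36 ± 0.08 for clockb (0.00222). For all 6 probes every 8 dpf sample lay above every 5 dpf sample, as for 23.7% of all probes. The clock genes other than the members moved in the same direction more often than the opposite one, with 16 of 38 rising and 2 falling in controls, and 16 rising and 2 falling after TBBPA, whereas of all 8808 genes 1265 rose and 2015 fell in controls and 1727 rose and 2425 fell after TBBPA. In controls 7 of the 38 rose and 0 fell without replicate 1 of the 5 dpf group, where 987 of all genes passed. Without replicate 2 of the 8 dpf control group 10 rose and 0 fell, where 1514 of all genes passed. After TBBPA 9 rose and 1 fell without replicate 1 of the 5 dpf group, where 1266 of all genes passed.

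**Figure D4:**
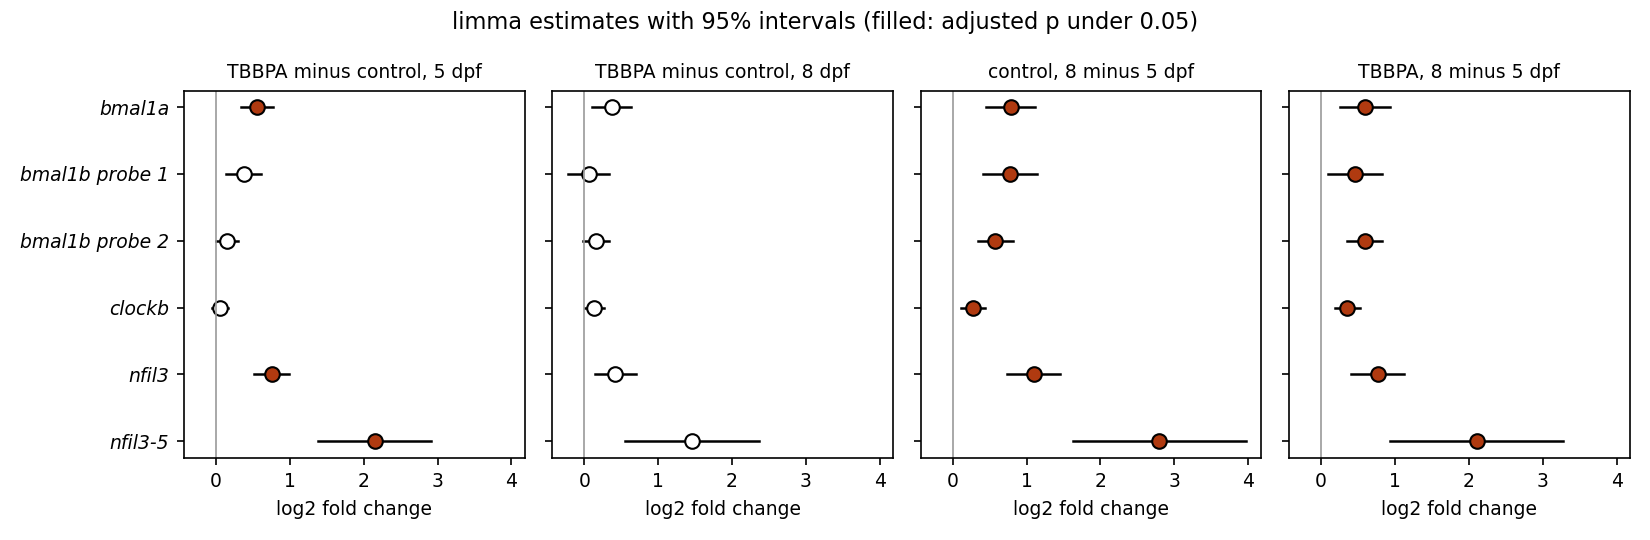
Log2 fold change with its 95% interval (horizontal axis) of the 6 probes in 4 comparisons, with filled points for a limma adjusted p under 0.05. At 5 dpf bmal1a (0.56), nfil3 (0.76) and nfil3-5 (2.15) passed, at 8 dpf 0 of 6 passed, and between the ages 6 of 6 passed in controls and in TBBPA larvae.

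The calls by age rested on few arrays. Only 4 arrays linked the ages, each through replicate 1 of a 5 dpf group, and when all arrays were scaled to the same spread, 1 of 6 probes passed in controls (nfil3, 0.80) and 2 of 6 in TBBPA larvae. How many of all probes passed with scaled arrays is not given here. Without replicate 1 of the 5 dpf controls, 1 of 6 passed in controls (bmal1b probe 2, 0.54), where 987 of all 8808 genes passed over gene averages. The rise was then 0.40 for bmal1a, 0.42 for bmal1b probe 1, 0.25 for clockb, 0.85 for nfil3 and 2.00 for nfil3-5. Without replicate 1 of the 5 dpf TBBPA group 0 of 6 passed in TBBPA larvae, where 1266 of all genes passed over gene averages. The changes were then 0.64 for bmal1a, 0.60 for nfil3 and 1.71 for nfil3-5. The rise of bmal1b probe 1 in TBBPA larvae passed in 5 of 12 fits that left out 1 sample and not with a dye term (limma adjusted p = 0.0813). Markers of other tissues also moved with age, and in controls all 6 pancreas genes (list means -1.17 to -0.27 at 8 dpf), 4 of 4 liver, 3 of 3 blood, 4 of 5 skin and cornea, 4 of 5 muscle, 4 of 5 brain, 5 of 6 cone and 3 of 5 rod genes fell. Of 6 lens genes, 3 rose in controls and 2 in TBBPA larvae (list means -0.36 to 0.50 in controls and 0.28 to 0.75 in TBBPA larvae at 8 dpf), with the lowest control value in replicate 1, as for bmal1a, nfil3 and nfil3-5, and the part of these tissues in the result was not tested.

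The order of the groups was the same for each probe, with 5 dpf controls lowest, then TBBPA at 5 dpf, controls at 8 dpf and TBBPA at 8 dpf. The middle groups were close for bmal1a (means 0.0047 ± 0.17 and 0.03 ± 0.36, SD, n = 3), nfil3 (0.01 ± 0.34 and 0.13 ± 0.35) and nfil3-5 (0.13 ± 0.77 and 0.14 ± 1.06). In a contrast chosen after these levels were seen, controls at 8 dpf minus TBBPA at 5 dpf, the estimate was 0.23 for bmal1a (95% interval -0.11 to 0.56, limma adjusted p = 0.254), 0.34 for nfil3 (-0.02 to 0.70, 0.112) and 0.65 for nfil3-5 (-0.53 to 1.82, 0.358). A difference of up to 0.56, 0.70 and 1.82 is therefore not excluded by these intervals. The fitted estimates for bmal1a, nfil3 and nfil3-5 are larger than the differences between their mean levels. For bmal1b probe 2 (0.43 ± 0.11, limma adjusted p = 0.00602) and clockb (0.22 ± 0.08, 0.0324) controls at 8 dpf were higher than TBBPA at 5 dpf, where 43.6% of all probes differed. With replicate 1 of the 5 dpf controls left out, these estimates were 0.08 for bmal1a, 0.29 for nfil3, 0.49 for nfil3-5, 0.48 for bmal1b probe 2 (limma adjusted p = 0.0106) and 0.22 for clockb (0.110).

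The members differed in how closely their samples varied together. Over the 12 samples the range of levels was 4.60 for nfil3-5, which only 10 of all probes exceeded, 1.70 for nfil3, 1.40 for bmal1a, 1.03 and 0.96 for the bmal1b probes and 0.52 for clockb, while the median probe had a range of 0.60. Pearson's r over the 12 samples, which share arrays and groups, was 0.97 for bmal1a with nfil3-5, 0.96 for bmal1a with nfil3 and 0.97 for nfil3 with nfil3-5. After the group means were removed, r was 0.89, 0.85 and 0.85 for these pairs, so samples high in one tended to be high in the others. This did not hold in every group, as TBBPA replicate 3 of 8 dpf was highest for nfil3-5 (1.94) but lowest for nfil3 (0.46). Over the 11 samples without replicate 1 of the 5 dpf controls r within groups was 0.86, 0.87 and 0.85. For bmal1a and nfil3-5, replicate 1 was the lowest sample in 4 of 4 groups, and for nfil3 and bmal1b probe 1 in 3 of 4. For bmal1b probe 2 and clockb it was the lowest in 2 of 4.

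The bmal1b probes did not follow each other within groups. Over the 12 samples their r was 0.65, and -0.05 after the group means were removed. Probe 1 had an r within groups of 0.52 with bmal1a, 0.56 with nfil3 and 0.54 with nfil3-5. For probe 2 these values were -0.23, -0.02 and 0.13. Probe 2 was closer to clockb (0.87 over the 12 samples and 0.45 within groups), and clockb had an r of 0.70 with bmal1a over the 12 samples but of -0.04 within groups.

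The genes most like bmal1a over the 12 samples were cry4, a cryptochrome (Pearson's r = 0.97), neurod1, a transcription factor of neuronal differentiation (0.96), and the co-chaperone gene dnaja2b (0.93). For nfil3 they were neurl1ab, a relative of the ubiquitin ligase neuralized (0.96), rorcb, a ROR receptor (0.95), and nxnl2, a thioredoxin-like gene of photoreceptors in mammals (0.95). For nfil3-5 they were neurod1 (0.98), neurl1ab (0.97) and rorcb (0.95), so that rorcb and neurl1ab stood in both lists. The genes most like bmal1b probe 1 were the lens crystallin cryba2b (0.92), the ephrin gene efnb2b (0.90) and lim2.1 (0.89). Those most like probe 2 were bnip3 (0.96), slco1c1, a carrier of thyroid hormone (0.94), and wbp1 (0.94), and those most like clockb were arid3b (0.98), epb41l5 (0.98) and sash1a (0.97). No gene stood in the lists of both bmal1b probes.

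Of 59 names of other clock genes listed for their role, some of which may stand for the same gene, 38 were measured. Most that passed the test went the opposite way to the members. At 5 dpf, 3 rose and 17 fell over all 8808 genes (median log2 fold change -0.19), where 527 of all genes rose and 309 fell (median 0.01). At 8 dpf, 3 rose and 11 fell (median -0.19), where 63 of all genes rose and 77 fell. With a dye term and an estimated share of the RNA sample, 3 rose and 12 fell at 5 dpf, without bhlhe40, cry1a, per3, roraa and tefb (limma adjusted p = 0.0740, 0.0737, 0.114, 0.199 and 0.0952). At 8 dpf 0 rose and 10 fell with this term, without aanat2, cry3b, cry4 and bhlhe41 (limma adjusted p = 0.0570, 0.0710, 0.0617 and 0.0570). The difference of the effects between the ages passed for 0 of the 38 with limma, and for 1 higher and 1 lower without replicate 3 of the 5 dpf controls. The list was chosen with earlier results of these samples known, so its counts are not independent evidence of a direction.

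**Figure D5:**
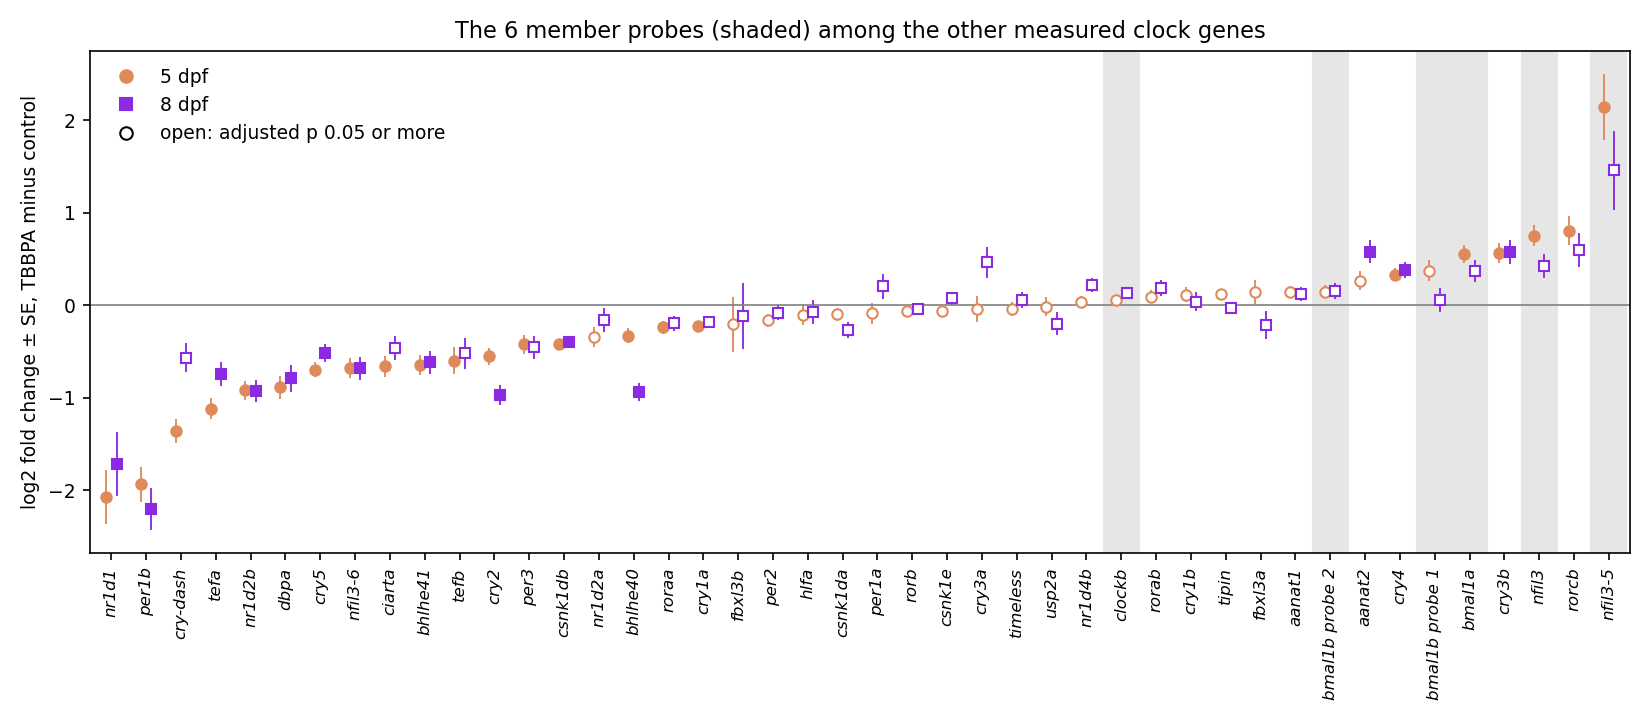
Log2 fold change ± SE of TBBPA over control (vertical axis) at 5 dpf (circles) and 8 dpf (squares) for the 6 member probes (shaded) and the 38 other measured clock genes (averaged over their probes), ordered by the 5 dpf value. Filled symbols mark a limma adjusted p under 0.05, adjusted over all probes for the member probes and over all gene averages for the other genes. The values at 5 dpf ran from -2.07 for nr1d1 to 2.15 for nfil3-5, and 17 of the 38 other genes fell while 3 rose.

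Of the REV-ERB and ROR receptors, which repress and activate bmal1 transcription, 8 of 10 were measured. At 5 dpf rorcb rose (0.81 ± 0.16, limma adjusted p = 0.00496), nr1d1 (-2.07 ± 0.29) and nr1d2b (-0.92 ± 0.10) fell, and roraa fell slightly (-0.24 ± 0.07, 0.0494). At 8 dpf nr1d1 (-1.72 ± 0.34, limma adjusted p = 0.0165) and nr1d2b (-0.93 ± 0.12, 0.00163) were still lower in TBBPA eyes, and rorcb did not pass (0.60 ± 0.18, 0.147). Levels of rorcb were -1.06, -0.83 and -0.64 in the 5 dpf controls and -0.61, 0.22 and 0.22 after TBBPA, with TBBPA replicate 1 nearest to the controls, as for nfil3 and nfil3-5. Those of nr1d1 spread widely in the 5 dpf controls, at 1.55, 0.74 and -0.45 for replicates 1 to 3. After TBBPA they were -1.15, -1.72 and -1.16. For nr1d2b they were 0.26, 0.25 and 0.12 in these controls and -0.36, -1.01 and -0.86 after TBBPA. Within groups, r with nr1d1 was -0.54 for bmal1a, -0.50 for nfil3 and -0.56 for nfil3-5, and with nr1d2b it was -0.72, -0.87 and -0.71. The 5% to 95% range over all genes was -0.70 to 0.72 for bmal1a, -0.66 to 0.70 for nfil3 and -0.55 to 0.60 for nfil3-5. The nr1d2b values lay below it for all 3 genes and, of these 3, the nr1d1 value for nfil3-5 alone. For nr1d2a r was -0.46, -0.49 and -0.37, and for nr1d4b 0.23, -0.04 and 0.21, all within the ranges. Of the ROR genes, roraa also had r below 0 (-0.66, -0.45 and -0.53), within the ranges, as were rorab and rorb. For rorcb r was 0.63, 0.76 and 0.80, above the range for nfil3 and nfil3-5. With bmal1a, per3 (-0.85) and tefa (-0.78) lay lower than nr1d2b, so low values were not particular to the nr1d genes. With bmal1b probe 1, bmal1b probe 2 and clockb r was -0.56, -0.19 and 0.12 for nr1d1, and -0.28, 0.08 and 0.26 for nr1d2b. The nr1d1 value of probe 1 lay below its 5% bound of -0.53. Of the 38 other clock genes, 28, 27 and 25 had r below 0 with bmal1a, nfil3 and nfil3-5. With bmal1b probe 1, bmal1b probe 2 and clockb the counts were 24, 17 and 16. The median r over all genes was 0.13, 0.12 and 0.07 for bmal1a, nfil3 and nfil3-5, and the share of all genes with r below 0 is not given here.

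The period and cryptochrome families hold repressors of the activating pair, besides members that are not known as such. Examples of these are cry-dash and cry5, which belong to the same protein family as light-driven DNA repair enzymes. Of the 19 listed names, 12 were measured. The list holds names that may stand for the same cryptochrome, such as cry1aa beside cry1a, so an unmeasured name need not be a missing gene. At 5 dpf cry3b (0.56 ± 0.11, limma adjusted p = 0.00544) and cry4 (0.33 ± 0.07, 0.00933) rose with the members, and per1b (-1.94 ± 0.19), cry-dash (-1.36 ± 0.13), cry5 (-0.70 ± 0.08), cry2 (-0.55 ± 0.09), per3 (-0.42 ± 0.11) and cry1a (-0.22 ± 0.05) fell. The calls for cry3b and cry1a are averages of 2 probes each. For cry3b 1 probe did not pass alone at 5 dpf (0.29, limma adjusted p = 0.144) or at 8 dpf (0.33, 0.333). For cry1a 1 probe did not pass alone at 5 dpf (-0.22, limma adjusted p = 0.156). Levels of per1b were 1.37, 0.88 and 0.18 in replicates 1 to 3 of the 5 dpf controls and -0.62, -1.63 and -1.08 after TBBPA. For cry-dash they were 0.93, 0.35 and 0.09 in these controls and -0.67, -0.81 and -1.125 after TBBPA. At 8 dpf cry3b (0.58) and cry4 (0.38) passed as higher, and per1b (-2.20), cry2 (-0.97) and cry5 (-0.52) as lower. Within groups cry4 had r of 0.93 with bmal1a, 0.87 with nfil3 and 0.79 with nfil3-5, but of 0.32 and -0.30 with the bmal1b probes and -0.15 with clockb. For per3 r was -0.85, -0.72 and -0.68 with bmal1a, nfil3 and nfil3-5, and 0.54 with bmal1b probe 2 and 0.21 with clockb.

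Of the D-box activators and nfil3 relatives, 5 of 10 were measured, and none rose. At 5 dpf tefa (-1.12 ± 0.11), dbpa (-0.89 ± 0.12) and tefb (-0.60 ± 0.14), which activate the elements that NFIL3 represses, fell while nfil3 and nfil3-5 rose. The relative nfil3-6 moved against its namesakes. It fell at 5 dpf (-0.68 ± 0.11, limma adjusted p = 0.00143), with 5 of 5 probes passing between -0.89 and -0.46, and at 8 dpf (-0.68 ± 0.13, 0.0102), with 2 of 5 probes passing between -0.75 and -0.62. At 8 dpf tefa (-0.74) and dbpa (-0.79) were also lower, and hlfa passed at neither age.

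Of the 17 other clock genes, 13 were measured. The E-box repressors bhlhe41 (-0.64 ± 0.11) and bhlhe40 (-0.33 ± 0.08), ciarta (-0.66 ± 0.11), which encodes another repressor of the activating pair, and csnk1db (-0.42 ± 0.06), which encodes a casein kinase, fell at 5 dpf. At 8 dpf bhlhe40 (-0.94), bhlhe41 (-0.62) and csnk1db (-0.40) were lower, and aanat2, an enzyme of melatonin synthesis, was higher (0.58 ± 0.12, limma adjusted p = 0.0260). Without replicate 1 of the 5 dpf controls, 0 of the 38 other clock genes rose and 6 fell at 5 dpf, where 46 of all genes passed. Without TBBPA replicate 2 of 5 dpf 0 rose and 12 fell, where 284 of all genes passed. At 8 dpf 0 rose and 2 fell without TBBPA replicate 1, where 5 of all genes passed. Without control replicate 1 or without control replicate 2, 0 rose and 4 fell, where 30 and 39 of all genes passed. Without TBBPA replicate 3, 0 rose and 8 fell, where 52 of all genes passed.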

How the data were processed

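RNA of 12 eye samples, in 4 groups of 3, was hybridized to 14 two-color Agilent zebrafish arrays. The deposited table holds log2 ratios of Cy5 over Cy3 for 17950 probes. According to the methods, the authors filtered spots against the background, corrected it with a normal-exponential model, normalized each array by loess and used limma (version 3.34.4 per the submitters' processing notes). The log base and direction come from the methods and dye labels. When any single array was turned, the summed squared residuals of the fit grew 1.02 to 1.88 times. Turning all arrays at once cannot be tested so. The number of arrays limits the precision.

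The ratios were fitted as deposited with limma 3.58.1 in R 4.3.3, with a coefficient per group and the RNA sample as a random effect, whose estimated share of the variance was 0 (0.32 with a dye term). The residual degrees of freedom were 11 and the prior ones 3.61. Tests were two-sided, with Benjamini-Hochberg adjustment over all probes, or over 8808 genes for probes averaged per gene. Alternatives were a dye term, plates as units, the replicate number as a block, direct arrays only, scaled arrays, array weights, gene averages, a fold change threshold and leaving out each sample. The scripts were tested on simulated data. Of the probes, 14135 carried a symbol, 12089 of them matched by accession to RefSeq gene names of the GRCz12tu assembly and 439 by an older symbol alone. The members and gene lists were chosen with earlier results of these data known. Named genes were the 6 member probes, the 3 genes most correlated with each over 12 samples, other clock genes that passed at either age, and close relatives. Of 6 cone and 5 rod markers, 2 and 1 rose and 2 and 1 fell at 5 dpf. Of the brain, blood, muscle, inner retina and pigment epithelium markers, 0 of 5, 2 of 3, 1 of 5, 0 of 5 and 0 of 4 rose at 5 dpf, and 0, 0, 0, 2 and 1 fell.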

Additional observations from a re-analysis of the deposited data

How the results depend on the processing

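The number of member probes that passed at 5 dpf was 3, and it was 0 with plates as units and 0 to 4 when 1 RNA sample was left out. With direct arrays only it was 2, as bmal1a did not pass (0.50, adjusted p = 0.0550). At 8 dpf the number was 0, and 0 when any sample was left out, but 2 with array weights. Of the 6 probes that rose with age, 1 (controls) and 2 (TBBPA) passed with scaled arrays, and 1 to 6 (controls) and 0 to 6 (TBBPA) passed with a sample left out. In TBBPA larvae 2 of the 6 passed with an absolute log2 fold change over 0.75, where 3.13% of all probes were higher. How many of all probes passed with direct arrays only, array weights, scaled arrays or the replicate number as a block is not given here. The adjusted p values are from limma.

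Same-numbered samples of different groups did not deviate together over all probes (r between -0.46 and 0.68 over 18 pairs, median 0.08, and 6 of 12 samples correlated best with their own number). A correlation over all probes cannot tell whether a few genes share an order by number, so it does not settle whether the numbers pair the samples. Replicate 1 was lowest in 4 of 4 groups for bmal1a and nfil3-5, and in 3 of 4 for nfil3 and bmal1b probe 1. With the replicate number as a block, 3 of 6 passed at 8 dpf (bmal1a 0.41, nfil3 0.46 and nfil3-5 1.61, limma adjusted p = 0.0165, 0.0256 and 0.0128), and the other counts stayed within 1.5 times.

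Some small estimates changed sign. The difference of effects for bmal1b probe 2 (0.01) was -0.0042 with the dye term, -0.053 with plates as units, -0.15 over gene averages and -0.13 to 0.15 with a sample left out. That of bmal1a (-0.19) ranged from -0.33 to 0.020 (without replicate 1 of the 5 dpf controls), and the 8 dpf effect of bmal1b probe 1 (0.06) from -0.045 to 0.21. The cause of these changes was not tested. No sign of a member effect that passed the test turned under any alternative run.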
